A study of Mus musculus with 20 samples.

Results

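Genes that mark cytotoxic lymphocytes were followed across 20 expression arrays of cells sorted from mouse skeletal muscle and bone marrow. The 8 genes were Ccl5, Gzma, Gzmb, Prf1, Ifng, Ctsw, Klrd1 and Klra7, out of 8251 genes named on the array. They were found by their symbols in the array's table of probes and genes, and each was read by 1 probe set except Klra7, which had 2, so that 9 probe sets were followed. The 8 genes had been chosen because of their signal in these same arrays, by their level in side population cells and by how much it varied among the muscle arrays. Differences that involve a side population are therefore given for these genes as descriptions, without a test.

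Natural killer cells and cytotoxic T cells kill target cells by releasing granules. Perforin opens the target's membrane and granzymes, which are serine proteases, enter and start cell death. The same cells release interferon gamma and chemokines, and natural killer cells read MHC class I through lectin-like receptors of the Ly49 and CD94 families, which hold them back or release them. Such lymphocytes circulate in blood and are also found within marrow and, in small numbers, within muscle.

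All cells came from adult C57BL/10SnJ mice, an inbred strain, and no group carried a named genetic change or treatment. Muscle and marrow were each sorted into a side population (SP), the small fraction that pumps out the DNA dye Hoechst and is known in marrow to contain blood stem cells, and a main population (MP), the cells that keep the dye. There were 5 samples in each of the 4 groups. The labels do not say whether samples came from separate animals or from pools, and p-values therefore cover only the variation among these samples, part or all of which may be technical. These are also mixed populations, and fewer cells of a type and less RNA per cell cannot be told apart in them.

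Values are log2 signal intensities after quantile normalization, and a signal below 105 (log2 6.71) was set to that floor. All 9 probe sets rose above the floor on enough arrays to be tested, among 10310 that did. The tissue labels were set against defining markers, with summed signals taken before the floor was applied. The summed signal of 12 endothelial markers was 165591 to 198656 on muscle SP and 7959 to 14648 on bone marrow SP arrays. The summed signal of 9 blood stem cell markers was 18971 to 37369 on bone marrow SP and 4317 to 6380 on bone marrow MP arrays. It was 31045 to 47061 on muscle SP and 29945 to 37056 on muscle MP arrays. This sum therefore sets marrow SP apart from marrow MP but not from the muscle groups. Arrays of a group correlated over all probe sets at r of 0.911 or above, the lowest pair being in muscle SP. The log2 ratio of the GAPDH control probes at the 3' and 5' ends, which grows as RNA is degraded or amplified short, was 3.83 ± 0.61 (SD, n = 5) in muscle SP, 3.72 ± 0.60 in bone marrow SP, 2.66 ± 0.62 in muscle MP and 2.67 ± 0.72 in bone marrow MP.

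As background on the 8 genes, the DNA just upstream of their starts is shown for the 4 that had a window lying wholly outside their own annotated span. The windows are the 250 bases before the annotated start, from RefSeq's annotation of the mouse assembly GRCm38.p6, printed 5' to 3' on the gene's strand. They lie at chr13:113100982-113101231 on the minus strand for Gzma, chr14:56262335-56262584 on the minus strand for Gzmb, chr10:118440796-118441045 on the plus strand for Ifng and chr6:130233323-130233572 on the minus strand for Klra7. That of Gzma falls within the annotated span of Cdc20b, and no annotated gene overlaps the other 3 in the table used here. Capitals mark the letters of a searched motif on either strand.
Gzma: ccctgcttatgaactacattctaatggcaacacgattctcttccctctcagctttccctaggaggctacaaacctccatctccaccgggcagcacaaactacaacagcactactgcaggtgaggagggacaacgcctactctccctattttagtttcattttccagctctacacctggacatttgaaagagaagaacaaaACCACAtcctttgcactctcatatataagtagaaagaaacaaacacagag
Gzmb: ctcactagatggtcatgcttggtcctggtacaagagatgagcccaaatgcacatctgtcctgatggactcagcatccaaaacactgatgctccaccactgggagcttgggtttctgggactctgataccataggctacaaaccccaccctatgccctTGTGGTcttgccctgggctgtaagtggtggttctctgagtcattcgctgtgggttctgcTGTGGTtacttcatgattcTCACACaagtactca
Ifng: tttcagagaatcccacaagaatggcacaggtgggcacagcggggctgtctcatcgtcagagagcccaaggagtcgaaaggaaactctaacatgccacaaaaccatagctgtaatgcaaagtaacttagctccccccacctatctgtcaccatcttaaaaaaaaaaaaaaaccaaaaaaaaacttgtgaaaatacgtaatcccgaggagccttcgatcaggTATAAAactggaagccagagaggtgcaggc
Klra7: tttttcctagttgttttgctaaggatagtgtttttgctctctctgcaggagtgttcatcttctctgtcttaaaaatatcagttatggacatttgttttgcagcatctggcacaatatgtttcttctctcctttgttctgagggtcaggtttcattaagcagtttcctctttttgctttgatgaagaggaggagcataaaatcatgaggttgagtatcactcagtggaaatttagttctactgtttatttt
The motifs searched on both strands were the RUNX core TGTGGT, the T-box core GTGTGA, the ETS core AGGAAG, the cyclic AMP response core TGACGT and the TATA box TATAAA, and none of their matches overlapped in these windows. The Gzma window held a RUNX core on its opposite strand at positions -50 to -45 before the start. Gzmb held RUNX cores at -93 to -88 and at -34 to -29, and a T-box core on the opposite strand at -15 to -10. The Ifng window held a TATA box at -30 to -25, and the letters of none of the 5 motifs are in the Klra7 window. Among 32817 upstream windows of this length, 14.0% held the RUNX core, 12.3% the T-box core, 29.5% the ETS core, 6.46% the cyclic AMP response core and 12.4% the TATA box. These are matches of letters and say nothing of which factor was bound. Windows were matched for 5 of the 8 genes. Those of Prf1 and of a second, inner start of Klra7 lie partly or wholly within the gene's own span and are not printed. Ccl5, Ctsw and Klrd1 were not matched.

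Ccl5 encodes the chemokine RANTES, which draws T cells, natural killer cells and monocytes and is stored by cytotoxic lymphocytes. Its log2 signal was 13.81, 14.55, 15.43, 10.96 and 11.04 on muscle SP samples 1 to 5, and 8.30, 8.17, 7.52, 7.30 and 8.28 on muscle MP samples 1 to 5. Every muscle SP array lay above every muscle MP array, but muscle SP 4 and 5 lay well below muscle SP 1, 2 and 3. In marrow it was 15.84, 15.44, 15.88, 15.07 and 15.25 in SP, and 11.86, 11.83, 11.70, 10.21 and 11.85 in MP. The muscle SP range reached from within the marrow MP range up to within the marrow SP range. The mean was 5.24 ± 0.62 (SE) log2 units higher in muscle SP than in muscle MP, a 37.8-fold difference, and 4.01 ± 0.62 higher in marrow SP than in marrow MP.

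Ifng encodes interferon gamma, the cytokine by which these lymphocytes activate macrophages and antigen presentation. On muscle SP samples 1 to 5 its log2 signal was 8.88, 10.11, 9.89, 8.40 and 8.75, and all 5 muscle MP arrays were at the floor. On marrow SP it was 12.44, 12.02, 13.57, 13.48 and 13.73, and on marrow MP 6.85, 8.51, 7.73, 7.14 and 6.71, the last at the floor. Marrow SP stood above the other groups on every array, muscle SP came next, and its lowest array lay within the marrow MP range. The difference was at least 2.49 ± 0.37 log2 units (at least 5.63-fold) in muscle, and 5.66 ± 0.37 (50.6-fold) in marrow.

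The granule proteins come next. Gzma encodes granzyme A, a protease that cuts after basic residues. Its log2 signal was 9.77, 10.23, 11.22, 8.48 and 8.31 on muscle SP samples 1 to 5. On muscle MP it was 6.83 in sample 1 and at the floor in the other 4 samples. The muscle groups did not overlap, and the mean difference was 2.87 ± 0.39 log2 units. On marrow SP it was 9.96, 9.12, 9.74, 9.15 and 9.47, and on marrow MP 8.51, 7.97, 7.95, 7.45 and 8.59. The marrow groups did not overlap either, with a difference of 1.39 ± 0.39. The muscle SP and marrow SP ranges overlapped for Gzma, whose means differed by 0.11 ± 0.39. This difference became -0.29 without muscle SP 3, so its sign is not settled.

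Gzmb encodes granzyme B, which cuts after aspartate and activates caspases. Its log2 signal was 9.88, 10.73, 11.33, 8.83 and 8.50 on muscle SP and 7.24, 6.71, 6.76, 6.71 and 7.49 on muscle MP, where samples 2 and 4 were at the floor. The muscle groups did not overlap and their means differed by 2.87 ± 0.42 log2 units. On marrow SP it was 12.45, 10.99, 12.36, 11.04 and 11.17, and on marrow MP 9.82, 10.38, 10.04, 9.54 and 9.72. The marrow groups also lay apart, by 1.70 ± 0.42, and the whole marrow MP range fell within that of muscle SP.

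Prf1 encodes perforin. Its log2 signal was 8.54, 7.76, 8.86, 7.92 and 7.11 on muscle SP and 7.02, 7.19, 6.71, 6.71 and 6.71 on muscle MP, with the last 3 at the floor. On marrow SP it was 9.21, 7.92, 8.47, 8.39 and 8.58, and on marrow MP 8.05, 7.87, 7.91, 7.72 and 7.98. The ranges of SP and MP overlapped in both tissues, and the differences were 1.17 ± 0.26 in muscle and 0.61 ± 0.26 in marrow.

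Ctsw encodes cathepsin W, a protease of natural killer and cytotoxic T cells. It was above the floor on 2 muscle SP arrays, at 7.54 in sample 2 and 9.0 in sample 3, and at the floor on the other 3 muscle SP arrays and on all muscle MP and marrow MP arrays. On marrow SP it was 10.84, 11.06, 11.60, 9.75 and 10.03. Marrow SP was thus the only group with Ctsw above the floor on every array, at least 3.94 ± 0.36 log2 units above marrow MP.

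The last genes encode lectin-like receptors. Klrd1 encodes CD94, the shared partner of several of the NKG2 receptors. Its log2 signal was 8.22, 9.99, 10.79, 8.71 and 8.20 on muscle SP samples 1 to 5, and all 5 muscle MP arrays were at the floor. On marrow SP it was 11.35, 11.55, 13.04, 11.80 and 12.18, and on marrow MP 8.82, 9.22, 9.88, 9.36 and 9.66. Marrow SP lay above all other groups, and the marrow MP range fell within that of muscle SP. The difference was at least 2.47 ± 0.40 in muscle and 2.60 ± 0.40 in marrow.

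Klra7 encodes Ly49G, a receptor of the Ly49 family, whose genes are close copies of each other. Both of its probe sets carry a suffix that marks possible cross-hybridisation with related sequences, as does that of Gzma, so other Ly49 genes may add to these values. Its first probe set read 7.78, 9.19, 9.93, 8.39 and 7.50 on muscle SP, and was at the floor on muscle MP except for 7.08 in sample 4. The second read 7.85, 8.40, 9.92, 7.24 and 7.15 on muscle SP and 6.71, 6.80, 6.71, 7.04 and 7.01 on muscle MP. With both probe sets all muscle SP arrays lay above all muscle MP arrays, by 1.77 ± 0.40 and 1.26 ± 0.38 on the means. On marrow SP the first read 10.67, 9.72, 10.74, 9.27 and 10.56, and on marrow MP 7.68, 7.99, 7.99, 6.92 and 8.90. For the second the marrow values were 9.87, 9.41, 10.64, 9.18 and 10.26 in SP and 7.59, 8.07, 8.41, 7.81 and 8.53 in MP. The marrow groups lay apart with both, by 2.30 ± 0.40 and 1.79 ± 0.38.

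**Figure D1:**
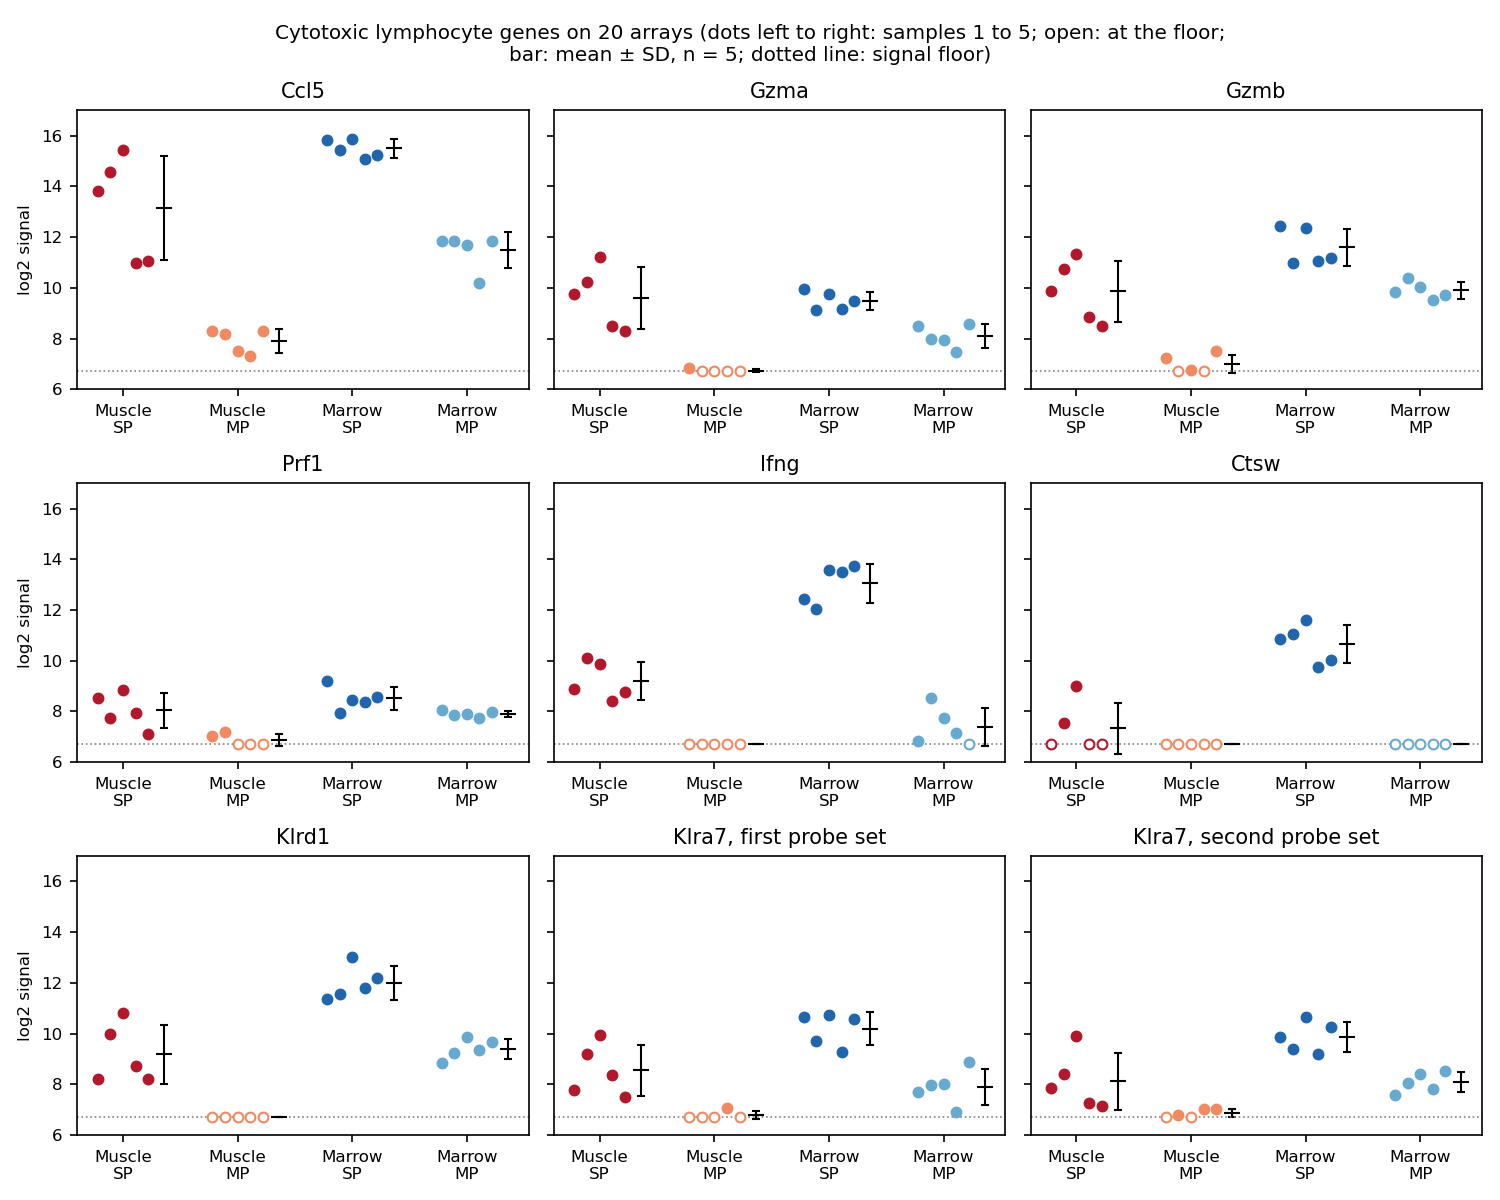
Log2 signal of the 9 probe sets (vertical axis) on all 20 arrays, grouped by tissue and population, with samples 1 to 5 from left to right within a group, open points at the floor and bars for the mean ± SD (n = 5). Muscle SP samples spread most for Ccl5, from 10.96 to 15.43, and muscle MP arrays sit at or near the floor of 6.71 for every gene except Ccl5.

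Counted together, SP and MP ranges did not overlap for 7 of the 9 probe sets in muscle, all higher in SP, the exceptions being Prf1 and Ctsw. Of all probe sets, 4.43% were higher in muscle SP without overlap. In marrow 8 of the 9 were higher in SP without overlap, the exception being Prf1, beside 9.98% of all probe sets. The floor bears on the size of these differences in muscle, where some or all MP arrays were at it for every gene except Ccl5. With the floor at the 10th and at the 40th percentile the muscle difference was 3.54 and 1.61 for Gzma, 3.95 and 1.21 for Ifng and 2.79 and 1.19 for Klrd1. It was 2.22 and 0.71 for the first Klra7 probe set, 1.46 and 0.28 for Prf1 and 1.47 and 0.20 for Ctsw. Since the genes were picked with these contrasts in view, nothing is read from either count. Between the side populations, Ifng, Ctsw and Klrd1 were lower in muscle SP without overlap, beside 11.9% of all probe sets. The differences were -3.85 ± 0.37 for Ifng, -3.32 ± 0.36 for Ctsw and -2.80 ± 0.40 log2 units for Klrd1. For Ccl5, Gzmb, Prf1 and Klra7 the means were lower in muscle SP, by amounts from -0.48 ± 0.26 for Prf1 to -2.34 ± 0.62 for Ccl5, and the ranges overlapped.

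**Figure D2:**
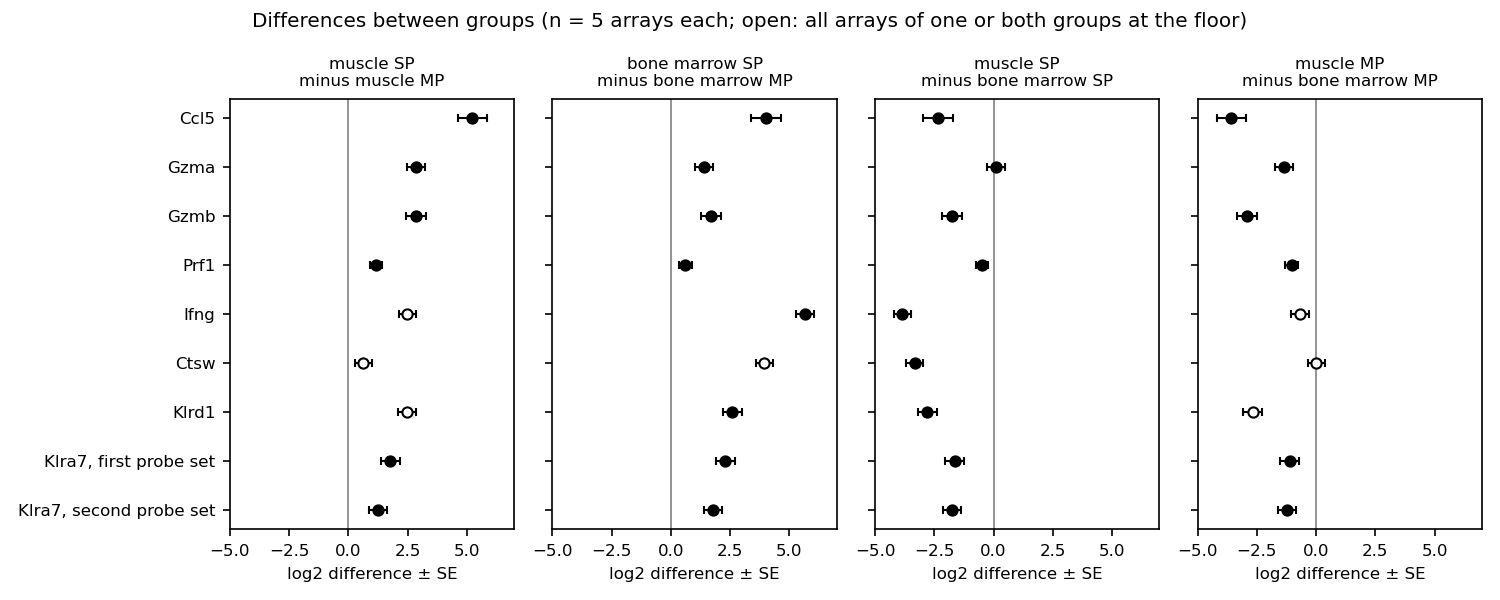
Log2 difference of the group means (horizontal axis, ± SE from the fit over all arrays) for the 9 probe sets in 4 comparisons of 5 arrays against 5, with open points where all arrays of at least 1 of the groups were at the floor. SP minus MP is above 0 for all 9 in both tissues, reaching 5.24 for Ccl5 in muscle and 5.66 for Ifng in marrow, and the open points have sizes set by the floor.

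The comparison of the main populations rests on the same arrays by which the genes were picked, where these populations served as the lower side. The choice can favour low values in either of them, so the p-values of the 9 probe sets are not independent of it. This comparison was tested with limma over all 10310 probe sets. Of these, 25.6% were called lower and 46.5% were called in either direction at an adjusted p under 0.05. Of the 9 probe sets, 7 were lower in muscle MP than in marrow MP and none was higher. Gzmb fell by 2.91 ± 0.42 log2 units (limma adjusted p = 4.7e-06), Klrd1 fell by at least 2.68 ± 0.40 (limma adjusted p = 6.2e-06) and Ccl5 fell by 3.57 ± 0.62 (limma adjusted p = 4.9e-05). The ranges of muscle MP and marrow MP did not overlap for these 3 genes, nor for Prf1, Gzma and the second Klra7 probe set, so that 6 of the 9 probe sets were lower without overlap, beside 21.6% of all probe sets. Prf1 fell by 1.04 ± 0.26 (limma adjusted p = 0.0024) and Gzma fell by 1.36 ± 0.39 (limma adjusted p = 0.0060). The Klra7 probe sets were at -1.23 ± 0.38 (the second, limma adjusted p = 0.012) and -1.11 ± 0.40 (the first, limma adjusted p = 0.026), and the first had overlapping ranges and did not pass without marrow MP 5 (-0.86, limma adjusted p = 0.090). Ifng differed by -0.68 ± 0.37, which did not pass (limma adjusted p = 0.15), with all muscle MP arrays and 1 marrow MP array at the floor. Ctsw was at the floor on all 10 arrays, which sets no order. With the floor raised to the 40th percentile, Gzma, Prf1 and both Klra7 probe sets no longer passed, with limma adjusted p from 0.61 to 0.97. With it lowered to the 10th percentile Ifng passed, at -2.00 (limma adjusted p = 9.0e-04).

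Within muscle SP the 9 probe sets followed the same arrays. Muscle SP 3 was the highest array for 8 of them, and muscle SP 2 for Ifng. Over all 10310 probe sets, 22.1% had their highest muscle SP value on sample 3, and 32.0% on sample 1, where none of the 9 did. The lowest was muscle SP 5 for 6 probe sets, muscle SP 4 for Ccl5 and Ifng, and Ctsw was tied at the floor on samples 1, 4 and 5. The mean log2 signal over the 9 probe sets was 9.05, 9.83, 10.71, 8.41 and 8.14 on samples 1 to 5. The summed linear signal of the 8 genes was 17558, 29968, 53666, 4185 and 3889. Ccl5 was the largest part of this sum on every sample and most of it on all samples except 4, so the sum follows mainly that gene. Even the lowest of these sums was above the 642 to 945 of muscle MP, and it lay within the 3279 to 6746 of marrow MP.

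The genes thus varied more among muscle SP arrays than most probe sets. Their SD across the 5 arrays ranged from 0.69 for Prf1 to 2.05 for Ccl5, with a median of 1.13, and the median SD of all probe sets was 0.40. In the other groups the members' median SD was 0.66 in marrow SP, 0.41 in marrow MP and 0.16 in muscle MP, where many values are at the floor, beside 0.41, 0.29 and 0.28 over all probe sets. The variation among muscle SP arrays was among the reasons for choosing the genes, so it is a description.

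Markers of other blood cells moved with these arrays. On muscle SP samples 1 to 5 the summed signal of 12 granulocyte markers was 18295, 50493, 16573, 2725 and 2305. That of 6 erythroid markers was 19426, 17790, 12253, 2075 and 2218, and that of 12 monocyte and macrophage markers was 12812, 16075, 11296, 5318 and 5353. All 3 sums were lowest on samples 4 and 5, as the members' sum, largely Ccl5, and their mean log2 signal were. None of the 3 was highest on sample 3. Hba-a1, an alpha globin chain, read 14.04, 13.91, 13.38, 10.27 and 10.44, and Camp, a neutrophil granule peptide, read 12.77, 13.92, 12.26, 9.33 and 8.61. Lyz2, the macrophage and granulocyte lysozyme, was 9.20, 12.09 and 11.09 on samples 1 to 3 and at the floor on samples 4 and 5. Of these lists Ctsg, Car1 and Adgre1 were at the floor on all 5 arrays.

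The 9 mast cell and basophil markers summed to 9273, 5406, 12373, 3723 and 3368, highest on sample 3 and lowest on samples 4 and 5. Fibroblast markers, 10 in all, were also lowest on samples 4 and 5, at 70337 and 74264, beside 112236 to 120201 on the others. Endothelial markers ran from 165591 on sample 1 to 198656 on sample 4, and 11 B lineage markers from 3443 on sample 3 to 4303 on sample 5. The 4 megakaryocyte and platelet markers summed to 396 to 798, and the floor for a single gene was 105. The GAPDH 3' to 5' log2 ratio was 4.79, 3.34, 4.07, 3.43 and 3.50 and the beta-actin ratio was 2.99, 1.88, 2.52, 2.56 and 2.63, highest on sample 1. The part of other cells or of RNA quality in the spread of the cytotoxic genes was not tested.

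**Figure D3:**
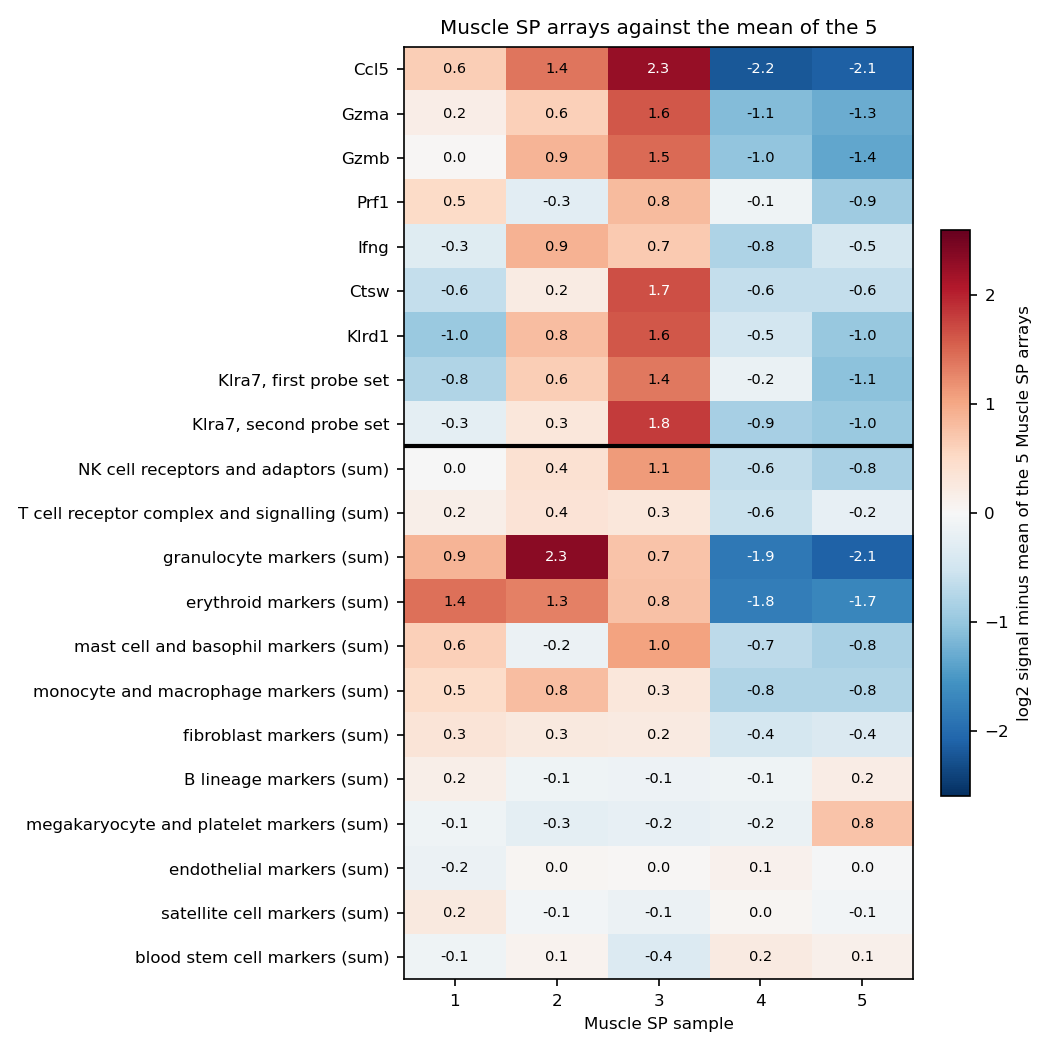
Log2 signal on each of the 5 muscle SP arrays (columns) minus the mean of the 5, in colour and figures, for the 9 probe sets of the cytotoxic genes (above the line) and for the log2 of the summed signal of marker lists (below it). Cytotoxic genes are mostly highest on sample 3, granulocyte markers on sample 2 and erythroid markers on sample 1, and the granulocyte and erythroid sums are lowest on samples 4 and 5. Sample 5 is the lowest array for 6 of the 9 probe sets, while sample 4 is the middle one for Prf1, Klrd1 and the first Klra7 probe set.

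Other genes of natural killer and cytotoxic T cells were read from 7 lists, with 108 of 151 genes on the array and 96 tested. The lists were chosen with earlier results of these data known, so counts of their genes beside all genes are descriptions. On muscle SP arrays, 64 of the 96 were above the floor on all 5 arrays, beside 61 in muscle MP, 85 in marrow SP and 76 in marrow MP. The same was not counted over all genes, so nothing is read from these counts. Of the 96, 46 (47.9%) had their highest muscle SP value on sample 3, beside 22.1% of all probe sets tested. The defining chains of the T cell receptor complex Cd3e and Cd3g and the inhibitory receptor Ctla4 were at the floor on all 5 muscle SP arrays, and so were the natural killer receptor Ncr1, the adaptor Sh2d1a and Klra2. Cd3d, another chain of the complex, was 6.97, 7.66 and 8.90 on samples 1 to 3 and at the floor on samples 4 and 5. Tyrobp, the adaptor DAP12 of activating receptors in natural killer and myeloid cells, read 9.48, 10.75, 11.55, 7.37 and 7.80. Klra3, another Ly49 gene, read 8.34, 10.51, 11.98, 8.59 and 8.42, and Txk, a kinase of T and natural killer cells, was 8.15, 8.76 and 9.43 on samples 1 to 3 and at the floor on the other 2. Each of these 4 genes was highest on muscle SP 3, but they were picked after their values were seen, so nothing is read from this. The summed signal of the natural killer list was highest on sample 3, and that of the T cell receptor list on sample 2.

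Between muscle SP and muscle MP, 23 of the 96 genes rose in SP and 4 fell (limma adjusted p under 0.05), with a median difference of 0.32 log2 units. Over all 7295 genes 4.93% rose and 7.50% fell, with a median of 0.02. Among receptors of cytokines 3 of 8 rose and none fell. Il18r1, a chain of the interleukin 18 receptor, rose by 1.83 ± 0.23 and Il7r, the interleukin 7 receptor, by 1.76 ± 0.39. Il18r1 read 7.81, 9.22, 9.18, 8.52 and 8.49 on muscle SP and was at the floor on 4 of 5 muscle MP arrays. Among natural killer receptors and adaptors 5 of 18 rose and none fell, including Klrb1b (NKR-P1B) by 1.13 ± 0.26, the Ly49 gene Klra5 by 0.89 ± 0.18, on a probe set open to cross-hybridisation, and Cd7 by 0.83 ± 0.21.

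Of the T cell receptor complex and its signalling, 2 of 19 genes rose and 1 fell. The costimulatory receptor Cd28 rose by 1.42 ± 0.26 and read 9.46, 9.60, 9.64, 8.41 and 8.32 on muscle SP, while Cd27 rose by 0.94 ± 0.24 on its brighter probe set and differed by 0.28 on the other (limma adjusted p = 0.62). Prkcq, a protein kinase C of T cells that is also found in muscle fibres, fell by 0.95 ± 0.21, and its second probe set was at -0.84 (limma adjusted p = 0.064). Of 8 transcription factors 3 rose and none fell, among them Gata3 by 1.13 ± 0.21 and Nfil3 by 1.43 ± 0.25. A second Nfil3 probe set differed by 0.02. Of 9 effector cytokines and death ligands 2 rose and 1 fell, with Fasl, the Fas ligand, rising by at least 1.48 ± 0.34 from a muscle MP group all at the floor. Of 13 other granule proteins 1 rose, the inhibitor cystatin F (Cst7) by 1.37 ± 0.33, and 1 fell.

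Of 21 genes of the interferon gamma receptor and its targets 7 rose in muscle SP and 1 fell. The immunity-related GTPases Iigp1, Ifi47 and Igtp rose by 1.28 ± 0.32, 1.14 ± 0.22 and 0.85 ± 0.21. Iigp1 read 12.83, 13.67, 13.88, 13.67 and 14.01 on samples 1 to 5, so that it was highest on muscle SP 5, where 6 of the 9 cytotoxic probe sets were lowest. Igtp was highest on muscle SP 3, at 11.41, and Ifi47 on muscle SP 2, at 11.56, so these 3 genes had no array in common as their highest. A second Iigp1 probe set differed by 0.67 (limma adjusted p = 0.16). These GTPases respond to type I interferons as well as to interferon gamma and are made by many cell types.

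The count in muscle depended on the fit. It was 16 with only the muscle arrays fitted and 14 with the GAPDH 3' to 5' ratio as a covariate, in place of 27. Without 1 array at a time 12 of the 27 calls were lost at least once, those of Ctsc, Cxcl9, Il18rap, Irf1, Irf8, Jak2, Klrg1, Psmb8, Sh2d1b1, Stat4, Tnf and Tnfsf10, with limma adjusted p up to 0.13. The calls of Il18r1, Cd28, Gata3, Iigp1, Ifi47, Igtp and Prkcq passed under all 22 alternatives. Of 12 monocyte and macrophage markers 10 were lower in muscle SP and none was higher, beside 7.50% of all genes lower. None of 12 granulocyte markers and none of 6 erythroid markers was called in either direction. The part of these cells in the counts was not tested. Granulocyte markers summed to 2305 to 50493 on muscle SP and 2402 to 10559 on muscle MP arrays, erythroid markers to 2075 to 19426 and 1991 to 8881, and macrophage markers to 5318 to 16075 and 27362 to 35113.

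In bone marrow 38 of the 96 genes rose in SP and 12 fell, with a median of 0.43, beside 16.5% and 14.9% of all genes and a median of 0.03. In the T cell receptor list 14 of 19 genes were higher and none lower. Cd3e rose by 3.71 ± 0.23 and Cd3g by 3.38 ± 0.37, and both were at the floor on 4 of 5 marrow MP arrays. The kinases Txk and Zap70 rose by 3.05 ± 0.45 and 2.76 ± 0.46, although 1 of 3 Zap70 probe sets was at -0.40 (limma adjusted p = 0.10). Of the natural killer list 8 rose and 3 fell, with the activating receptor Klrk1 (NKG2D) up by 2.42 ± 0.36, Klra3 by 2.38 ± 0.50 and Cd160 by 1.98 ± 0.27, and Cd96 by at least 2.21 ± 0.25. Fcer1g, the Fc receptor gamma chain shared with myeloid cells, fell by 2.26 ± 0.35 on its brighter probe set, which is open to cross-hybridisation, and was at -0.20 on the other (limma adjusted p = 0.44).

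Of 9 effector cytokines and death ligands 4 rose in marrow SP and none fell, with the chemokine Xcl1 up by 3.22 ± 0.26 and Fasl by 1.97 ± 0.34. The transcription factors split, with Gata3 up by 3.41 ± 0.21 and Eomes, a driver of the natural killer and cytotoxic fates, up by at least 1.48 ± 0.20, while Ets1, Klf2 and Nfil3 fell, at -1.50 ± 0.28, -1.31 ± 0.33 and -1.21 ± 0.25. Second probe sets of Ets1 and Nfil3 were at -0.12 (limma adjusted p = 0.67) and -0.86 (limma adjusted p = 0.081) and did not pass. Among granule proteins 3 of 13 rose and 2 fell. Serpinb9, which protects killer cells from their own granzyme B, rose by 1.61 ± 0.35, and the lysosomal genes Lyst and Lamp2 fell, at -1.76 ± 0.29 and -1.75 ± 0.20. Of the interferon gamma list 6 rose and 2 fell, and of the cytokine receptors 1 rose and 2 fell. Granulocyte markers summed to 114804 to 303165 on marrow SP and 462468 to 519322 on marrow MP arrays, and macrophage markers to 26178 to 79730 and 127343 to 143559. B lineage markers summed to 4305 to 8774 and 24634 to 46254, and erythroid markers to 23586 to 54933 and 13141 to 20973. Their part in these counts was not tested. The share of calls that were higher was 76.0%, 84.2% without further normalization and 63.5% with median scaling.

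Between the side populations of the tissues, of 96 genes, 48 were lower in muscle SP than in marrow SP and 18 were higher, with a median of -0.62, beside 22.4% and 18.9% of all genes and a median of -0.11. Of the T cell list 15 of 19 were lower and none higher, led by the adaptor Lcp2 (SLP-76) at -4.31 ± 0.23, and by Cd3e and Cd3g, at most -3.72 ± 0.23 and -3.42 ± 0.37 with all muscle SP arrays at the floor. Of the natural killer list 11 of 18 were lower and none higher, with Tyrobp at -3.88 ± 0.57 and Klrk1 at -2.17 ± 0.36. Lymphotoxin beta (Ltb) was at -5.26 ± 0.35, Xcl1 at -2.64 ± 0.26, the chemokine receptor Cxcr3 at -2.56 ± 0.29 and Stat4, which carries the interleukin 12 signal, at -2.82 ± 0.24. The interferon gamma list ran the other way, with 10 of 21 higher in muscle SP and 3 lower. Iigp1 rose by 4.03 ± 0.32, Gbp2 by 2.06 ± 0.36 and the chemokine Cxcl9 by at least 3.53 ± 0.21, and of the granule list Serpinb6a, a serpin of many tissues, rose by 3.96 ± 0.20. In muscle MP against marrow MP the same 4 genes were higher too, in this order by 4.83 ± 0.32, 2.67 ± 0.36, at least 4.29 ± 0.21 and 3.65 ± 0.20.

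Between the main populations, 40 of the 96 genes were lower in muscle and 16 were higher, with a median of -0.25, beside 25.4% and 23.6% of all genes and a median of -0.10. The differences were -5.41 ± 0.57 for Tyrobp, -4.96 ± 0.35 for Fcer1g, -4.77 ± 0.35 for Ltb, -4.58 ± 0.23 for Lcp2, -4.25 ± 0.33 for Cst7 and -4.01 ± 0.32 log2 units for Il18rap, the partner chain of Il18r1. The second Fcer1g probe set was at -0.26 (limma adjusted p = 0.24). Of these genes, Tyrobp and Fcer1g are also genes of granulocytes and macrophages, whose marker sums were given above for each group. The others need not be limited to cytotoxic cells either. B lineage markers summed to 4242 to 6399 on muscle MP and 24634 to 46254 on marrow MP arrays. The part of other cells in these differences was not tested. Natural killer receptors and adaptors were lower in 9 of 18 cases and higher in none, and the cytokine receptors in 6 of 8, with 1 higher.

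**Figure D4:**
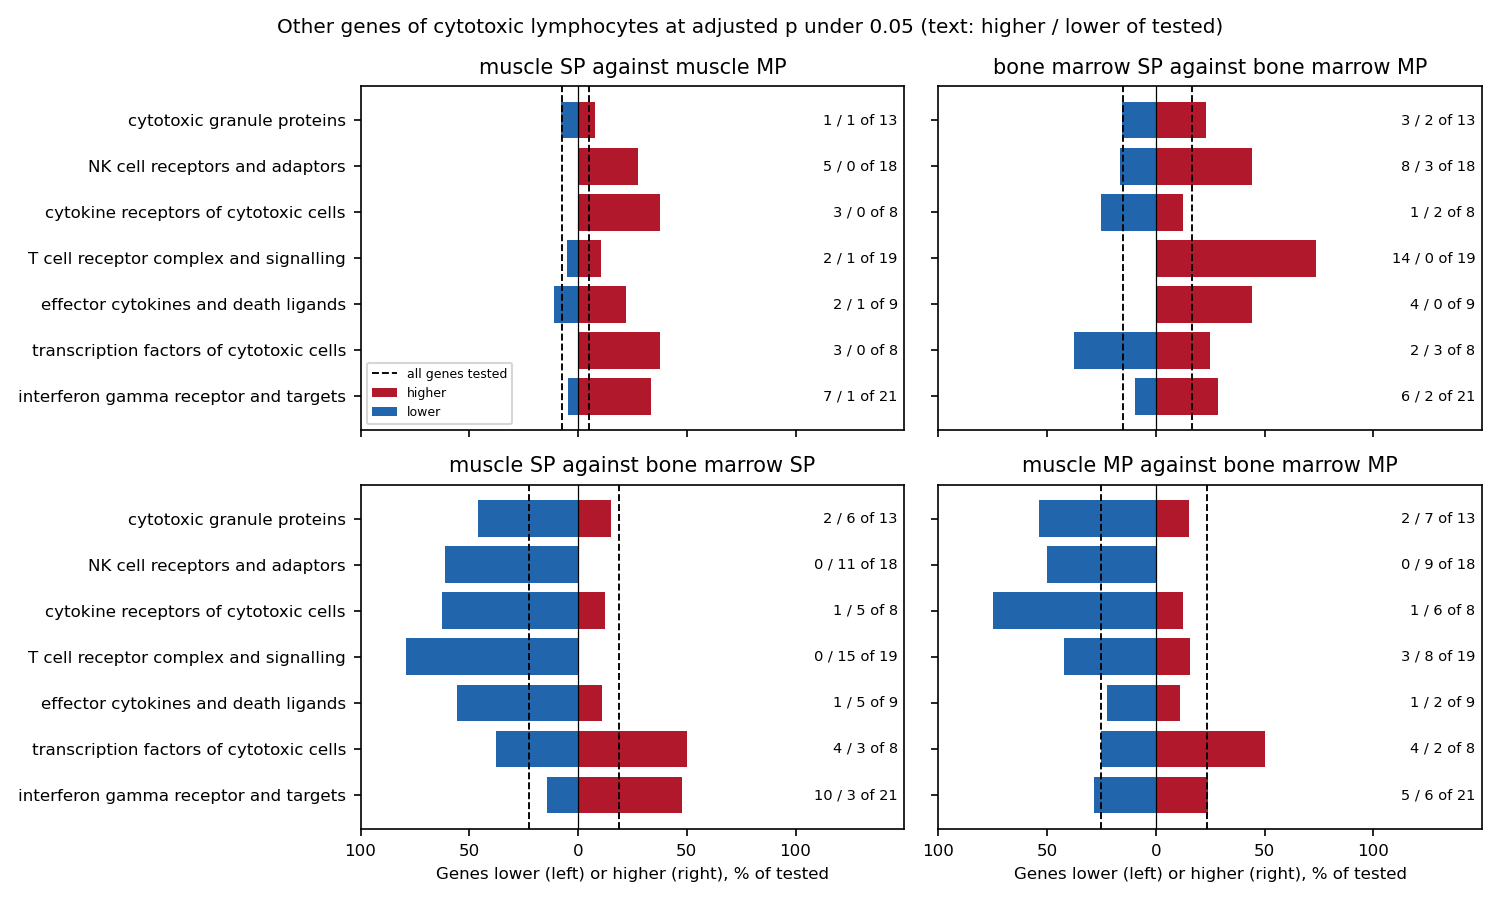
Share of the tested genes of each list that were higher (red, right) or lower (blue, left) at an adjusted p under 0.05 in 4 comparisons, with the counts written at the right and dashed lines at the shares over all 7295 genes tested. In muscle SP against muscle MP the bars are short and mostly to the right, and in marrow the T cell receptor list reaches 14 of 19 genes higher.

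The genes whose signal ran most like that of the 8 genes were ranked by Pearson's r over the 20 arrays, among 7287 other genes. They were set against the mean of the members' standardized log2 signals, with only the brighter probe set of Klra7. The first 8 were Trbv1 (0.97), a variable segment of the T cell receptor beta chain, Klra5 (0.95), Txk (0.94), Htt (0.94), Cd28 (0.93), Tap1 (0.91), Klrk1 (0.91) and Vps37b (0.91). These values rest largely on differences between the 4 groups, and the probe sets of Trbv1 and Klra5 are open to cross-hybridisation. The mean log2 signal of Trbv1 was 10.41 in muscle SP, 8.89 in muscle MP, 12.77 in marrow SP and 10.00 in marrow MP. Htt, the huntingtin gene, which is expressed in most cells, spanned a narrower range, at 11.50, 10.93, 12.05 and 11.15 in the same groups. The antigen peptide transporter Tap1 was 11.31, 10.62, 12.08 and 10.93 in the same groups, on the brighter of its 2 probe sets.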

How the data were processed

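The authors deposited linear intensity values, a single one for each probe set of each array. Their 2% trimmed mean is 1501 on all arrays, which points to scaling by the authors. Software, background correction and probe summary are not stated in the labels, and an earlier floor would change folds of dim genes. Of 12488 probe sets 66 controls were left out, and 10833 of the remaining 12422 have 1 symbol, 396 several and 1193 none. Array medians ran from 318 to 612, so the arrays were quantile normalized, which removes any overall difference in RNA content. Values below the 25th percentile (105) were raised to it, which makes folds of dim genes too small, and log2 was taken. Probe sets above the floor on at least 5 of 20 arrays were kept, 10310 in all. A single limma fit (version 3.58.1, R 4.3.3) held the 4 groups, with two-sided tests, Benjamini-Hochberg adjustment over all probe sets and a threshold of 0.05. It was tested on simulated arrays with the same spread in all groups and with changes planted only in bright probe sets. That simulation does not cover unequal spread or changes near the floor. The limma fit shares 1 spread among the 4 groups, so the SE of a probe set is the same in all 4 comparisons. The median SD of the members' probe sets was 1.13 in muscle SP and 0.16 in muscle MP. Their SE can therefore be too small where muscle SP enters. Over all probe sets the median SD was 0.40 in muscle SP and 0.28 in muscle MP, so the same can hold for listed genes. The brightest probe set stood for a gene in the lists.

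The 8 genes and all lists were chosen with earlier results of these data known. The genes named besides the 8 were chosen by rule. They are up to 4 genes per list, comparison and direction, with the largest differences among those called, and the 8 genes most like the members over the arrays. Some of these are left unnamed where their call is lost without a single array. Genes at the floor, and those shown array by array within muscle SP, were chosen after their values were seen. The number of arrays limits the precision. Upstream windows come from RefSeq (GRCm38.p6). Same-numbered samples did not all deviate together, so the numbers were not used as pairs, although whether they mark pairs is not settled.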

Additional observations from a re-analysis of the deposited data

Results flagged for a closer look

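In 3 of 32 groups of 5 values, which are those of the 9 probe sets with any value above the floor, 1 array lay apart from the other 4 by more than 0.71 of the group's range. Chance flags about 1 in 20 groups of continuous values, a rate that does not hold for Gzma and Klra7 here, whose other 4 values are tied at the floor. Ccl5 was 10.21 on bone marrow MP 4, and the nearest of the other 4 arrays was at 11.70. Without that array the difference between the main populations was -3.89 in place of -3.57. Gzma was 6.83 on muscle MP 1, where the other 4 arrays were at the floor of 6.71. For the first Klra7 probe set muscle MP 4 was at 7.08, and the other 4 arrays were at the floor.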

How the results depend on the processing

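The count of other cytotoxic lymphocyte genes called in muscle SP against muscle MP, 27, became 16 with only the groups compared, where fewer samples enter the fit, and 14 with the GAPDH ratio as a covariate. Leaving out 1 array gave 18 to 32 calls there, 43 to 48 in marrow, 62 to 65 between side populations and 51 to 57 between main populations. Calls kept under all alternatives (scaling, floor, pseudocount, filter, fit, covariate, block, probe set means and single arrays) were 7 of 27, 33 of 50, 57 of 66 and 42 of 56. Muscle SP 3 was the highest array for 8 probe sets under each scaling, floor and pseudocount. Same-numbered samples correlated at -0.14 to 0.30, with 0.07 to 0.21 for muscle SP against muscle MP and 0.05 to 0.30 between side populations. These values do not settle whether the numbers pair the samples. With the replicate block the counts of listed genes were 32, 57, 66 and 60. Over all probe sets the block gave more calls in every comparison, with 1396 in place of 1211 in muscle.

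The floor moved the folds of the cytotoxic genes by over 1.5 times for 16 differences at the 40th percentile and 6 at the 10th. With the GAPDH ratio the Ccl5 difference was 4.45 in muscle and 3.29 in marrow. Between the main populations the first Klra7 probe set lost its call without further normalization (limma adjusted p = 0.072) and without the filter (limma adjusted p = 0.055), and Ifng gained one with the pseudocount (-1.05, limma adjusted p = 0.011). The cause was not tested. Muscle MP values at the floor limit every cytotoxic gene except Ccl5.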

Other observations

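Another 6 probe sets of the Ly49 family carry several symbols and name no single gene. Their mean log2 signal was 7.21 to 9.71 in muscle SP, 6.71 to 8.37 in muscle MP, 7.59 to 10.34 in bone marrow SP and 6.88 to 8.86 in bone marrow MP.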
